A study of Gallus gallus with 25 samples.

Results

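The miR-26 family was represented by 3 of the 657 mature miRNA probes on arrays of embryonic chicken gonads. The 3 were chosen by name: gga-miR-26a, designed for the chicken (gga), and dre-miR-26a and dre-miR-26b, designed for the zebrafish (dre). Each array was hybridised with dye-labelled small RNA from gonads pooled by sex, and 25 arrays were made. The stages were embryonic day 5.5 (E5.5, Hamburger and Hamilton stages 27 to 28), E6.5 (stages 29 to 30) and E9.5 (stages 35 to 36). The array chip numbers in the labels were 4011845 for 18 arrays and 50636 for 7. On chip 4011845 there were, at E5.5, 3 arrays of males and 3 of females, at E6.5, 3 of males and 1 of females, and at E9.5, 4 of each sex. Chip 50636 held 2 arrays of males and 1 of females at E5.5, and 2 of each sex at E6.5. E5.5 and E6.5 embryos had been sexed by PCR on limb tissue, and E9.5 embryos by the asymmetry of the female gonads. No genotype or treatment was given, and all arrays were of whole gonads, so fewer cells of one type and less RNA per cell cannot be told apart.

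MicroRNAs guide Argonaute proteins to messenger RNAs, and the seed near the 5′ end of the miRNA sets most of the pairing. The miR-26 genes of vertebrates lie in introns of CTDSP-family phosphatase genes, which act on RNA polymerase II, and in the RefSeq table of the chicken assembly GRCg7b MIR26A1 lies within CTDSPL and MIR26A-2 within CTDSP1. In mammals miR-26a is known from differentiating cells and targets EZH2, the methyltransferase of Polycomb repressive complex 2. The gonads sampled span the change from an undifferentiated primordium to a recognisable testis or ovary.

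The probes are DNA and are printed as deposited, 5′ to 3′, because the results turn on how closely the members resemble each other. Capitals in the zebrafish probes mark the base at which dre-miR-26a and dre-miR-26b differ. Capitals in hsa-miR-26b, the human relative that was not a member, mark the base at which it differs from dre-miR-26b.
gga-miR-26a: gcctatcctggattacttgaa
dre-miR-26a: aGcctatcctggattacttgaa
dre-miR-26b: aAcctatcctggattacttgaa
hsa-miR-26b: aacctatcctgAattacttgaa
The chicken probe equalled the dre-miR-26a probe without its first base. Counted from the 5′ end of the probe, dre-miR-26a and dre-miR-26b differed by G2A, and dre-miR-26b and hsa-miR-26b by G12A. The RNA strand complementary to each probe shows the seed, bases 2 to 8, in capitals.
gga-miR-26a: uUCAAGUAauccaggauaggc
dre-miR-26a: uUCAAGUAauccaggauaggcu
dre-miR-26b: uUCAAGUAauccaggauagguu
The complement of this seed, tacttga, occurred in 4 of the 657 mature probes (0.609%), the 3 members and hsa-miR-26b. The Cy5 dye binds guanine, and each of the 3 complementary strands holds 5. With so little difference in sequence, the probes were not independent, and which RNA each bound was not tested.

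A spot counted as detected where its foreground intensity was above the 95th percentile of the 7 negative controls of its array. gga-miR-26a was detected on 18 of 18 arrays of chip 4011845 and on 24 of 25 in all. dre-miR-26a was detected on 25 of 25. dre-miR-26b was detected on 14 of the 18 and on none of the 7 arrays of chip 50636, where it was not well above background. All 8 E9.5 arrays detected all 3 members. The undetected 4 on chip 4011845 were Male E5.5 replicate 2, Female E5.5 replicate 5, Male E6.5 replicate 2 and the lone Female E6.5 array.

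Each member has a partner probe with 2 changed bases, which reports binding by RNA that fits poorly. The changed bases, in capitals, lie in the middle of the probe.
gga-miR-26a partner: gcctatcctTAattacttgaa
dre-miR-26a partner: agcctatcctTAattacttgaa
dre-miR-26b partner: aacctatcctTAattacttgaa
In the partner of gga-miR-26a the changes were G10T and G11A, and in those of the zebrafish probes G11T and G12A. None of the 3 partners was detected on any array. On chip 4011845 the perfect match was brighter than its partner by a median of 6.63-fold for gga-miR-26a (1.93 to 19.6), 10-fold for dre-miR-26a (2.15 to 25.6) and 3.28-fold for dre-miR-26b (1.38 to 7.77). On chip 50636 the medians were 2.89, 3.22 and 1.52. The human relative hsa-miR-26b was detected on 0 of 25 arrays, and on chip 4011845 its ratio to its partner had a median of 0.99 (0.951 to 1.09). The plot of perfect matches beside their partners shows all 4 probes array by array.

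**Figure D1:**
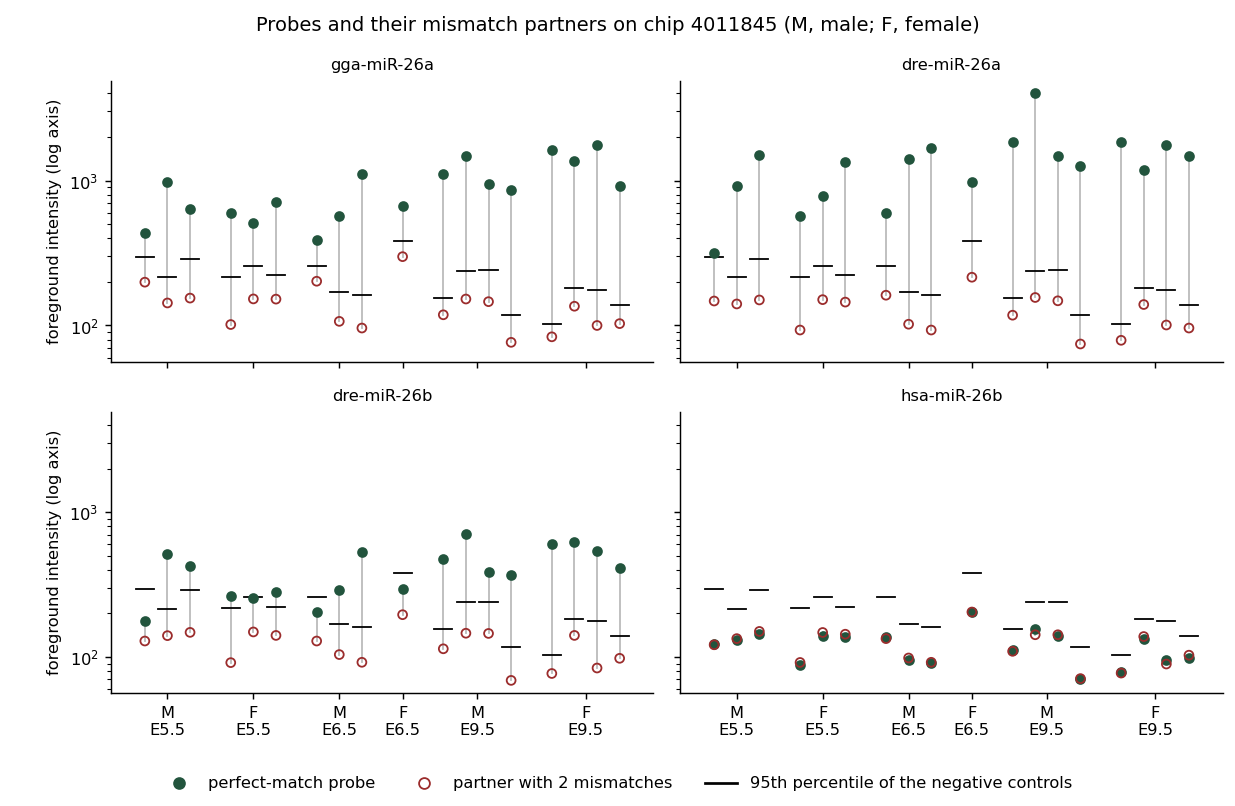
Foreground intensity (log axis) of the 3 miR-26 probes and of hsa-miR-26b on the 18 arrays of chip 4011845, by sex (M, F) and embryonic day. Filled points are perfect-match probes, open points their partners with 2 mismatches, and short bars the 95th percentile of that array's 7 negative controls. No partner lay above its bar, and hsa-miR-26b lay with its partner on every array.

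The arrays differed in brightness and background. Median foreground intensity ran from 74.5 to 207 on chip 4011845 and from 72 to 454.25 on chip 50636, and the chips held 51 to 177 and 76 to 229 detected mature probes. On chip 4011845 more mature probes were detected at later stages, with 51 to 126 at E5.5 (median 88), 64 to 138 at E6.5 (median 101) and 87 to 177 at E9.5 (median 138). The negative control percentile had medians of 241, 214 and 166 at these stages. Male E5.5 replicate 2, Male E6.5 replicate 2 and the Female E6.5 array, the 3 early arrays numbered 2, held the brightest single spots. These reached 16518.5, 28299.5 and 21437.25, counted over all probes of the array and not the mature ones alone. The next highest on that chip were 13400.25 and 11357.5, on Female E5.5 replicates 4 and 5, so no clear gap set the 3 apart. On both of the male arrays dre-miR-26a and dre-miR-26b read lowest of their group, and results are also given without these 3 arrays. The values below are normalised log2 intensities on chip 4011845 unless said otherwise, and the tests are limma's on its 163 tested probes, with p-values adjusted over all 163.

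Signal of the miR-26 probes was higher at E9.5 than at E5.5. For gga-miR-26a, the chicken probe, the E5.5 arrays read 8.89, 9.47 and 8.86 in males and 9.38, 8.47 and 8.88 in females. At E6.5 it read 8.28, 8.92 and 9.60 in males and 8.80 in the single female array. At E9.5 it read 9.83, 9.93, 9.54 and 10.02 in males and 10.38, 10.52, 10.38 and 9.93 in females. All 8 E9.5 arrays were above all 6 E5.5 arrays, while the highest male E6.5 array lay within the E9.5 range. In foreground units the E9.5 arrays ran from 865 to 1749.5 and the E5.5 arrays from 438 to 971.5. Averaged over the sexes, gga-miR-26a was 2.11-fold higher at E9.5 than at E5.5 (log2 difference 1.08 ± 0.21, SE, limma adjusted p = 0.0012, 95% interval 0.63 to 1.52).

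The longer zebrafish probe also named for miR-26a, dre-miR-26a, read 8.28, 9.28 and 9.93 in males and 9.32, 9.04 and 9.72 in females at E5.5. At E6.5 it read 8.80, 10.38 and 10.13 in males and 9.60 in the female array. At E9.5 it read 10.91, 10.91, 10.74 and 10.52 in males and 10.74, 10.25, 10.52 and 10.52 in females. Here too every E9.5 array was above every E5.5 array, and male E6.5 replicate 3 at 10.38 lay inside the E9.5 range. The 2 male arrays at 10.91 held the brightest mature spot of their arrays, to which quantile normalisation gives one common value. Their foreground intensities were 1856 and 3998, so the normalised values do not show the distance between them. Averaged over the sexes, dre-miR-26a was 2.60-fold higher at E9.5 (1.38 ± 0.26, SE, limma adjusted p = 0.00105, 95% interval 0.83 to 1.93).

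dre-miR-26b, the probe with the changed second base, read 7.01, 8.36 and 8.31 in males and 8.14, 7.37 and 7.45 in females at E5.5. At E6.5 it read 7.03, 7.92 and 8.57 in males and 7.01 in the female array. At E9.5 it read 8.58, 8.77, 8.28 and 8.43 in males and 9.28, 9.12, 8.86 and 8.69 in females. Unlike in the other 2 members its E9.5 and E5.5 arrays overlapped, since Male E9.5 replicate 2 at 8.28 was below Male E5.5 replicates 3 and 6. Of the 10 arrays at E5.5 and E6.5, 4 did not detect it. Averaged over the sexes, it was 1.97-fold higher at E9.5 (0.98 ± 0.25, SE, limma adjusted p = 0.0129, 95% interval 0.44 to 1.52).

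**Figure D2:**
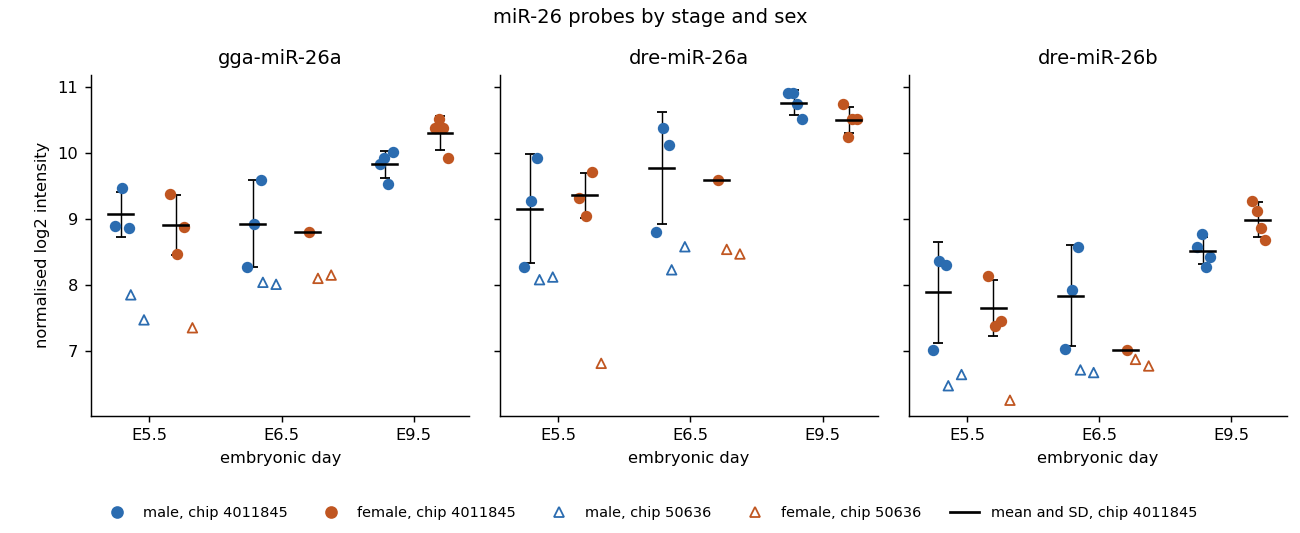
Normalised log2 intensity of the 3 miR-26 probes on every array, by embryonic day, with males left of females. Filled circles are arrays of chip 4011845 with their mean and SD (bars), and open triangles are arrays of chip 50636, which read lower. The E9.5 arrays lie above all E5.5 arrays for gga-miR-26a and dre-miR-26a, and overlap them for dre-miR-26b.

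In this averaged comparison all 3 members were called higher, at an adjusted p under 0.05. Of the 163 tested probes 23.3% were called, 17.8% higher and 5.52% lower, and the median difference over all tested probes was -0.02. Complete separation of the 8 E9.5 from the 6 E5.5 arrays in the upward direction, as for gga-miR-26a and dre-miR-26a, was seen in 11 of 161 probes with values on all arrays (6.83%). Set against all 10 earlier arrays, none of the 3 members was separated, while 3.77% of probes were. The 3 early arrays with the brightest single spots were also left out, a choice made after seeing the data. The averaged differences were then 1.03 ± 0.19 for gga-miR-26a, 1.16 ± 0.16 for dre-miR-26a and 0.76 ± 0.18 for dre-miR-26b (SE, limma adjusted p = 0.00115, 0.000133 and 0.00711). In a fit of all 25 arrays with the chip number as a term they were 1.18, 1.44 and 1.07, and again called, among 29.1% of 213 tested probes. All E9.5 arrays were on chip 4011845, so chip 50636 gives no value of its own for this comparison.

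**Figure D3:**
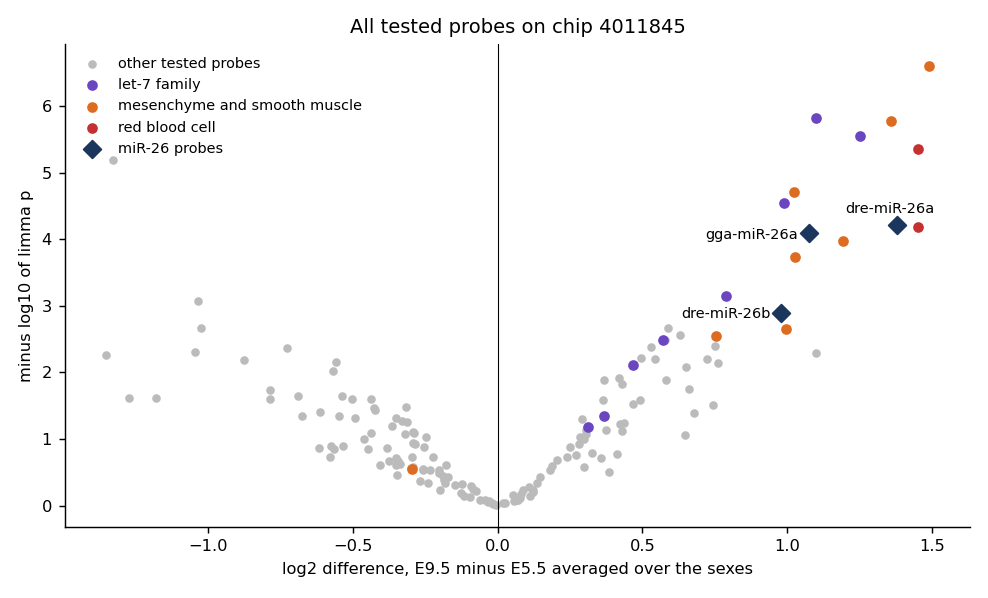
Log2 difference between E9.5 and E5.5, averaged over the sexes (horizontal axis), against the minus log10 of the unadjusted limma p (vertical axis) for the 163 tested probes of chip 4011845. Diamonds are the miR-26 probes, at 1.08, 1.38 and 0.98, and coloured points are the probes of 3 lists of miRNAs.

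In male gonads, dre-miR-26a was the member that passed the test between E9.5 and E5.5, when 6.75% of tested probes were called and 6.13% were called higher. It averaged 10.77 ± 0.188 in E9.5 males (SD, n = 4) and 9.16 ± 0.83 in E5.5 males (SD, n = 3), a log2 difference of 1.61 ± 0.37 (SE, limma adjusted p = 0.00993). Its call depended on Male E5.5 replicate 2, the lowest array at 8.28. Without that array the difference was 1.17 (limma adjusted p = 0.0734). Without all 3 early arrays numbered 2 it was also 1.17, and then called (limma adjusted p = 0.00662). The other arrays left out there were in neither group compared. That call therefore came from the rest of the fit and adds nothing on this difference.
gga-miR-26a averaged 9.83 ± 0.209 in E9.5 males (SD, n = 4) and 9.07 ± 0.346 in E5.5 males (SD, n = 3), without overlap. Its difference of 0.76 ± 0.30 did not pass the adjusted threshold (SE, limma adjusted p = 0.138, 95% interval 0.13 to 1.38). In the fit of all 25 arrays, which called 13.1% of 213 probes, it was 0.86 and called (limma adjusted p = 0.024). Upward separation of these male groups, as seen in gga-miR-26a and dre-miR-26a, was found in 14.8% of probes. dre-miR-26b differed by 0.62 ± 0.36 (SE, limma adjusted p = 0.327).

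In female gonads, gga-miR-26a and dre-miR-26b passed the test between E9.5 and E5.5, when 8.59% of tested probes were called and 7.36% were called higher. gga-miR-26a averaged 10.3 ± 0.258 in E9.5 females (SD, n = 4) and 8.91 ± 0.455 in E5.5 females (SD, n = 3), a log2 difference of 1.39 ± 0.30 (SE, limma adjusted p = 0.00811). dre-miR-26b averaged 8.99 ± 0.263 in E9.5 females and 7.65 ± 0.426 in E5.5 females, and the log2 difference was 1.34 ± 0.36 (SE, limma adjusted p = 0.028). Its call was lost without Female E5.5 replicate 5 or 4, or Female E9.5 replicate 1-1 or 1-2, where the difference was 1.19 to 1.29 (limma adjusted p = 0.0675 to 0.12).
dre-miR-26a averaged 10.51 ± 0.199 in E9.5 females and 9.36 ± 0.343 in E5.5 females, also without overlap. Its difference of 1.15 ± 0.37 lay just outside the threshold (SE, limma adjusted p = 0.0619). It was called in the fit of all 25 arrays (1.42, limma adjusted p = 0.005, with 16% of probes called). Without the 3 early arrays numbered 2 it was also called (1.15, limma adjusted p = 0.00165). Those arrays were in neither group compared, so the difference stayed at 1.15. The call came from the rest of the fit and adds nothing on these groups. The groups were separated upward for all 3 members, as they were for 23.5% of probes.

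The increase between E5.5 and E9.5 was not shown to differ between the sexes for any member. The male increase minus the female increase was -0.64 ± 0.42 for gga-miR-26a, 0.46 ± 0.52 for dre-miR-26a and -0.71 ± 0.51 for dre-miR-26b (SE, limma adjusted p = 0.987 each). Of all 163 probes none was called in this interaction by limma, and 4 had an unadjusted p under 0.05. The 95% intervals were -1.52 to 0.24, -0.64 to 1.56 and -1.78 to 0.36. For gga-miR-26a and dre-miR-26b they leave room for a much larger increase in females. For dre-miR-26a they leave room for differences in either direction.

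Between E5.5 and E6.5 no change of the family was called on chip 4011845. In males the E6.5 minus E5.5 difference was -0.14 ± 0.32 for gga-miR-26a, 0.61 ± 0.39 for dre-miR-26a and -0.05 ± 0.38 for dre-miR-26b (SE, limma adjusted p = 0.997, 0.927 and 1). In females, with 1 array at E6.5, it was -0.11 ± 0.45, 0.24 ± 0.56 and -0.65 ± 0.54 (SE, limma adjusted p = 0.902, 0.819 and 0.745). In both sexes 0% of tested probes were called, with 4 probes in males and 6 in females at an unadjusted p under 0.05. The male values above do not use the same-numbered arrays (2, 3 and 6) as pairs. By pair, dre-miR-26a went from 8.28 to 8.8, 9.28 to 10.38 and 9.93 to 10.13. gga-miR-26a went from 8.89 to 8.28, 9.47 to 8.92 and 8.86 to 9.6. dre-miR-26b went from 7.01 to 7.03, 8.36 to 7.92 and 8.31 to 8.57. With the pairs as a block no member was called. Chip 50636, where background was closer to the signal, gives a second view of these stages. On it gga-miR-26a read 8.04 and 8.01 in E6.5 males, against 7.85 and 7.47 in E5.5 males, and 8.10 and 8.15 in E6.5 females, against 7.35 in the E5.5 female array. dre-miR-26a read 8.23 and 8.58 in E6.5 males, against 8.08 and 8.12 in E5.5 males, and 8.54 and 8.47 in E6.5 females, against 6.81 in the E5.5 female array. On that chip both probes read higher on every E6.5 array than on every E5.5 array of the same sex. With so few arrays per group such an order is easily met, and the share of all probes that met it was not counted. A limma fit of its 7 arrays alone tested 116 probes, dre-miR-26b not among them. In males its E6.5 minus E5.5 difference was 0.37 ± 0.16 for gga-miR-26a and 0.30 ± 0.15 for dre-miR-26a (SE, limma adjusted p = 0.369 and 0.462), with 0% of probes called and 14 at an unadjusted p under 0.05. In females, against the single E5.5 array, it was 0.78 ± 0.19 and 1.70 ± 0.19, both called (SE, limma adjusted p = 0.0406 and 0.0113), as were 33.6% of the probes. Scan exposures were 0.1 to 0.2 s for these E6.5 arrays and 0.2 to 2 s for these E5.5 arrays. The Female E5.5 array there also had the highest background of all 25, with a negative control percentile of 478, and the part of this in the female difference was not tested.

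Between E6.5 and E9.5 all differences were upward, and the same E9.5 arrays entered as in the comparison with E5.5. In males the E9.5 minus E6.5 difference was 0.90 ± 0.30 for gga-miR-26a, 1.00 ± 0.37 for dre-miR-26a and 0.67 ± 0.36 for dre-miR-26b (SE, limma adjusted p = 0.165, 0.219 and 0.509), with 1.23% of tested probes called. dre-miR-26a was higher on every E9.5 male array than on every E6.5 male array, as were 7.45% of probes. Without Male E6.5 replicate 6, the brightest E6.5 array for gga-miR-26a, that probe differed by 1.23 and was called (limma adjusted p = 0.0295). Without the 3 early arrays numbered 2 the 3 differences were 0.57, 0.52 and 0.27, and none was called.
In females gga-miR-26a differed by 1.50 ± 0.43 and dre-miR-26b by 1.98 ± 0.53 (SE, limma adjusted p = 0.0447 each), when 9.82% of tested probes were called and 6.13% were called higher. Each of these calls was lost on leaving out 1 array in 11 of 17 cases, with an adjusted p of up to 0.0864 by limma. dre-miR-26a differed by 0.91 ± 0.54 (SE, limma adjusted p = 0.245). These rest on 1 Female E6.5 array, whose spread was borrowed from the remaining groups. The median difference over all tested probes was 0.267. Of 162 probes, 44.4% were higher on every E9.5 female array than on the Female E6.5 array, all 3 members among them. On that array dre-miR-26b was not well above background, at a measured 7.01, against a mean of 8.99 in E9.5 females. The lowest signal above background on that array was 7.87, and the E9.5 female mean was 2.17-fold above it. That ratio leaves out the spread between arrays, so it sets no minimum for the difference between the groups. The fit of all 25 arrays brings in the 2 Female E6.5 arrays of chip 50636, on which dre-miR-26b was not detected. This fit gave 1.18 for gga-miR-26a and 1.38 for dre-miR-26b, both called among 20.7% of probes (limma adjusted p = 0.0113 and 0.017). Without the chip 4011845 array of that group it gave 0.92 ± 0.36 for gga-miR-26a and 0.88 ± 0.42 for dre-miR-26b, neither called (SE, limma adjusted p = 0.0963 and 0.171). Markers moved in the same comparison on chip 4011845: dre-miR-451 (1.89), hsa-miR-451 (1.88), dre-miR-199* (1.52) and dre-miR-143 (1.23) were called higher, and the neural probes dre-miR-124 (-1.53) and mmu-miR-124a (-1.79) and the mesenchyme probe dre-miR-214 (-1.84) lower. Their part in the miR-26 differences was not tested.

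**Figure D4:**
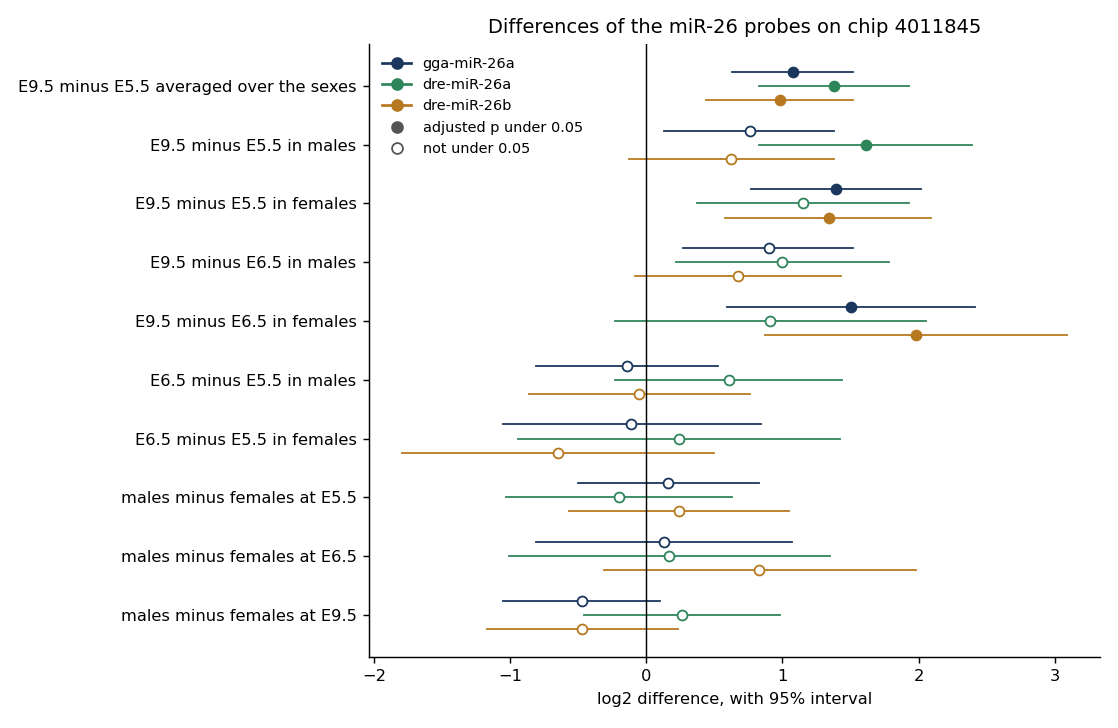
Log2 differences of the 3 miR-26 probes in 10 comparisons on chip 4011845, with 95% intervals (horizontal axis). Filled points have a limma adjusted p under 0.05. Filled points occur in comparisons of E9.5 with an earlier stage, and none in the comparisons of E6.5 with E5.5 or of males with females.

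No member was called between the sexes at any stage on chip 4011845, and 0% of tested probes were called in each of these comparisons. At E5.5 the male minus female difference was 0.16 ± 0.32 for gga-miR-26a, -0.20 ± 0.39 for dre-miR-26a and 0.24 ± 0.38 for dre-miR-26b (SE, limma adjusted p = 0.924 each). At E6.5, against the lone female array, it was 0.13 ± 0.45, 0.17 ± 0.56 and 0.83 ± 0.54 (SE, limma adjusted p = 0.872, 0.872 and 0.69), while the median of all tested probes was 0.24. At E9.5, when testis and ovary are distinct, it was -0.47 ± 0.27 for gga-miR-26a, 0.26 ± 0.34 for dre-miR-26a and -0.47 ± 0.33 for dre-miR-26b (SE, limma adjusted p = 0.803, 0.897 and 0.803). The male and female arrays overlapped for all 3 probes at E9.5. Between same-numbered arrays, which were taken as pairs there, the male read lower in 4 of 4 pairs for dre-miR-26b and in 3 of 4 for gga-miR-26a, and higher in 3 of 4 for dre-miR-26a. With the pairs as a block the differences were -0.47 ± 0.25, -0.47 ± 0.26 and 0.26 ± 0.28 for these probes (SE, limma adjusted p = 0.594, 0.594 and 0.798). With so few pairs, one direction in 4 of 4 is easily met, and the share of all probes that met it was not counted. Without the block, the 95% intervals at E9.5 were -1.05 to 0.10 for gga-miR-26a, -0.46 to 0.98 for dre-miR-26a and -1.17 to 0.23 for dre-miR-26b. A difference of about 1 log2 unit toward females could therefore not be set aside for gga-miR-26a and dre-miR-26b. Over all probes, limma gave an unadjusted p under 0.05 for 2 at E5.5, 11 at E6.5 and 11 at E9.5. In the fit of chip 50636 alone the male minus female difference at E6.5 was -0.10 for both miR-26a probes (limma adjusted p = 0.647 for gga-miR-26a and 0.644 for dre-miR-26a), with 2.59% of probes called. At E5.5, against the single female array of high background, it was 0.31 for gga-miR-26a and 1.30 for dre-miR-26a (limma adjusted p = 0.274 and 0.019), with 15.5% of probes called.

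Within arrays, the 2 probes named for miR-26a did not keep a fixed ratio. At E9.5 the foreground of gga-miR-26a was 0.367 to 0.687 of that of dre-miR-26a in males and 0.628 to 1.16 in females, so the sexes overlapped in one stretch of that range. At E5.5 the ratio ran from 0.423 to 1.38 in males and from 0.531 to 1.05 in females, and at E6.5 it was 0.404 to 0.667 in males and 0.675 in the female array. The ratio of dre-miR-26b to gga-miR-26a was narrower, from 0.311 to 0.483 over the 8 E9.5 arrays. Both pairs share all but 1 or 2 bases. The ratios are of foreground with background left in, so different ratios between arrays need not mean that the probes changed unequally.

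The 3 probes were correlated over the 18 arrays of chip 4011845. For gga-miR-26a and dre-miR-26b, Pearson's r was 0.91 and Spearman's rho 0.90 (permutation p = 1e-05 for each, the smallest the resamples can give, adjusted p = 3e-05 over 3 pairs), and r was 0.87 without the 2 arrays farthest from the median. For gga-miR-26a and dre-miR-26a they were 0.72 and 0.71 (permutation p = 0.00101 and 0.00145, adjusted p the same), with r at 0.61 without 2 arrays. For dre-miR-26a and dre-miR-26b they were 0.78 and 0.74 (permutation p = 0.00015 and 0.00075, adjusted p = 0.000225 and 0.00112), with r at 0.65 without 2 arrays.
Because the stages differ in level, the relations were also computed within them. Among the 8 E9.5 arrays r was 0.86 and rho 0.78 for gga-miR-26a and dre-miR-26b (exact permutation p = 0.00694 and 0.0295, adjusted p = 0.0208 and 0.0702), and r was 0.74 without 2 arrays. For gga-miR-26a and dre-miR-26a in the same arrays r was -0.59 and rho -0.73 (exact permutation p = 0.124 and 0.0468, adjusted p = 0.186 and 0.0702), and r was -0.38 without 2 arrays. Among mature probes dre-miR-26a ranked 1 to 3 in E9.5 males and 2 to 5 in E9.5 females, and gga-miR-26a 7 to 13 and 3 to 8. Quantile normalisation sets values by rank, and the E9.5 correlations were not recomputed with another scaling. The negative sign may therefore not hold for the intensities themselves. Among the 10 earlier arrays r was 0.78 and rho 0.68 for gga-miR-26a and dre-miR-26b (permutation p = 0.00896 and 0.0344, adjusted p = 0.0269 and 0.103), and r was 0.63 without 2 arrays. For gga-miR-26a and dre-miR-26a there r was 0.37 and rho 0.39 (permutation p = 0.292 and 0.264, adjusted p = 0.292 and 0.264), and r was 0.01 without 2 arrays. For dre-miR-26a and dre-miR-26b, r was -0.27 and rho -0.24 at E9.5 (exact permutation p = 0.514 and 0.561, adjusted p the same), and 0.61 and 0.59 in the earlier arrays (permutation p = 0.0655 and 0.0808, adjusted p = 0.0982 and 0.121), with r at 0.16 and 0.55 without 2 arrays.
The E9.5 set mixes the sexes, so deviations from the group means were correlated too, over 17 arrays. For gga-miR-26a and dre-miR-26b r was 0.78 and rho 0.78 (permutation p = 0.00025 and 0.00028, adjusted p = 0.00075 and 0.00084), with r at 0.62 without 2 arrays. For gga-miR-26a and dre-miR-26a r was 0.39 and rho 0.23 (permutation p = 0.121 and 0.372, adjusted p the same), with r at 0.06 without 2 arrays. These deviations pool the E9.5 groups with the earlier ones, so they do not show the sign within the E9.5 groups alone. For dre-miR-26a and dre-miR-26b r was 0.74 and rho 0.58 (permutation p = 0.00079 and 0.0163, adjusted p = 0.00118 and 0.0245), with r at 0.42 without 2 arrays.
On the 7 arrays of chip 50636 the order of the pairs was another. dre-miR-26b was detected on none of them, so its correlations there rest on values not well above background. There gga-miR-26a and dre-miR-26a had r 0.82 and rho 0.71 (exact permutation p = 0.0155 and 0.0881, adjusted p = 0.0232 and 0.0881), with r at 0.72 without 2 arrays. gga-miR-26a and dre-miR-26b had r 0.79 and rho 0.93 (exact permutation p = 0.0734 and 0.00675, adjusted p = 0.0734 and 0.0202), with r at 0.93 without 2 arrays. dre-miR-26a and dre-miR-26b had r 0.90 and rho 0.79 (exact permutation p = 0.0135 and 0.048, adjusted p = 0.0232 and 0.072), with r at 0.92 without 2 arrays.

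The 5 tested non-member probes whose level over the 18 arrays was most like that of gga-miR-26a were hsa-miR-16 (Pearson's r 0.90), dre-miR-143 (0.87), gga-miR-16 (0.86), dre-miR-451 (0.86) and dre-miR-16b (0.86). These values describe likeness across arrays that share stage and brightness, and they carry no test. Within groups r was 0.83 for hsa-miR-16, 0.75 for gga-miR-16 and 0.69 for dre-miR-16b. For dre-miR-143 and dre-miR-451 it was 0.5 each. Between E9.5 and E5.5 averaged over the sexes, hsa-miR-16 differed by 0.63, gga-miR-16 by 0.49, dre-miR-143 by 1.02 and dre-miR-451 by 1.45. All were called higher, as were 17.8% of all tested probes. dre-miR-16b differed by 0.37 (limma adjusted p = 0.0519). miR-143 is typical of smooth muscle and mesenchyme, and miR-451 of red blood cells.

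Lists of miRNAs put the increase of the family beside others in the averaged comparison of E9.5 with E5.5. In it 17.8% of all tested probes were called higher and 5.52% lower. Of the let-7 family, miRNAs that accumulate as cells differentiate, 8 of 18 probes were tested and 6 were called higher, with a median over the 8 of 0.68 against -0.02 for all tested probes. The called probes were gga-let-7a (1.25), mmu-let-7a (1.10), gga-let-7c (0.99), hsa-let-7d (0.79), gga-let-7b (0.57) and dre-let-7d (0.47). Some are named for the same miRNA of different species, so the count is not one of independent miRNAs. Of miRNAs that target EZH2 in mammals besides miR-26, 2 of 6 probes were tested and none was called by limma, with dre-miR-214 at -0.30 and dre-miR-138 at 0.12. EZH2 itself was not measured.

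Markers of cell types moved with stage as well, in the same averaged comparison, where 17.8% of all tested probes were called higher. Of the mesenchyme and smooth muscle list, 8 of 9 probes were tested and 7 were called higher at E9.5 (median 1.02), and the summed normalised intensity of the 9, on a linear scale, was 2760 to 5300 on E9.5 arrays and 1590 to 2280 on E5.5 arrays. The called probes were dre-miR-143, hsa-miR-143, dre-miR-145, hsa-miR-145, dre-miR-199*, gga-miR-199a and mmu-miR-199b. The remaining tested probe, dre-miR-214, went the other way and was not called (-0.3, limma adjusted p = 0.389). Of the red blood cell list, the 2 tested of 4 were both called higher (dre-miR-451 and hsa-miR-451, 1.45 each), and the sum of the 4 was 540 to 1520 on E9.5 arrays and 284 to 475 on E5.5 arrays. In both lists some probes are named for the same miRNA of different species, so the counts are not of independent miRNAs. The part of these markers in the increase of the miR-26 probes was not tested.
Of the gonad list, miR-202 and its star strand, 3 of 5 probes were tested and none was called by limma (median -0.26). miR-202 is the marker of the labelled tissue, and 0 to 4 of its 5 probes were detected on E5.5 arrays, 2 to 4 on E6.5 arrays and 0 to 2 on E9.5 arrays. Of the neural list 3 of 7 probes were tested (median -0.50) and of the epithelial and mesonephric kidney list 1 of 17 (0.02), and none was called. No probe of the white blood cell (6 probes), germ and pluripotent cell (9), skeletal muscle (9) or liver (2) lists was detected on 3 arrays of the chip.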

How the data were processed

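Small RNA of pooled gonads was labelled with Cy5 for one-colour arrays, according to the protocols in the labels. The authors deposited scanner tables of 1412 probes with a median foreground intensity for each, in which spots they excluded hold no value. They also deposited a series table of rescaled intensity values. No header or label names the scanner software. Foreground intensities were background-corrected with normexp (offset 50) and log2-transformed, and the mature probes were quantile-normalised over all 25 arrays in R 4.3.3 with limma 3.58.1. Probes detected (above the negative controls' 95th percentile) on at least 3 of the 18 arrays of chip 4011845 were tested (163). One limma model held the 6 group means, p-values were Benjamini-Hochberg adjusted over all tested probes of a comparison, and a call is an adjusted p under 0.05. All adjusted p-values of differences are limma's. The procedure was tested on simulated data.

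Arrays, not reads, limit the precision. The labels do not say whether 1-1 and 1-2 came from one pool. The p-values therefore reflect array-to-array spread, which may be partly technical. No 2 arrays held identical values. Deviations from the group means correlated at 0.13 to 0.44 in the 4 same-numbered male and female pairs at E9.5 and at 0.33 to 0.76 in the 3 male pairs of E6.5 and E5.5, so the numbers were taken as pairing there, on the data alone. In the other comparisons they were not. The members, the lists and the rule for naming the 5 probes most like gga-miR-26a (highest Pearson's r over 18 arrays) were chosen with earlier results of these data known. Lists were described by counts and medians, without a test of the list. Alternatives were all 25 arrays with a chip term, the chip normalised alone, scaling to the 75th percentile, no background correction, no filter or detection on 9 arrays, the replicate block, merged replicates 1-1 and 1-2, exposure as a covariate, only the groups compared, the series table, and each array left out. Slide position as a block, chip 50636 alone and leaving out the early arrays numbered 2 were added after seeing the data. Sequences of the mature miRNAs themselves were not used here.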

Additional observations from a re-analysis of the deposited data

How the results depend on the processing

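The averaged increase from E5.5 to E9.5 kept its direction and call for all 3 probes under all 13 alternatives and without each of the 18 arrays, at 0.88 to 1.26 for gga-miR-26a, 1.16 to 1.62 for dre-miR-26a and 0.76 to 1.63 for dre-miR-26b (highest limma adjusted p = 0.0487, 0.00686 and 0.0487). The differences at E9.5 between the sexes and the interaction kept their direction and stayed uncalled throughout. Results within one sex depended more on the setting, and in each case the cause was not tested. With the replicate block, where the numbers were not taken as pairing, the female E9.5 minus E5.5 difference was 0.98 for gga-miR-26a and 0.94 for dre-miR-26b, and the female E9.5 minus E6.5 difference 1.25 and 1.52, none called. The block turned the male minus female difference at E5.5 to -0.26 for gga-miR-26a and -0.26 for dre-miR-26b, and at E6.5 to -0.14 for gga-miR-26a and -0.41 for dre-miR-26a. It changed no other call, including those where the numbers were taken as pairing (-0.47, 0.26 and -0.47 for the sexes at E9.5).

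Female E9.5 minus E6.5 calls were lost for gga-miR-26a and dre-miR-26b with scaling to the 75th percentile (1.41 and 1.71), the series table (1.74 and 3.73), merged replicates (1.45 and 1.91) and all arrays less the Female E6.5 array numbered 2 (0.92 and 0.88), and for gga-miR-26a without a filter (1.50). Leaving out single arrays gave 1.43 to 1.63 and 1.88 to 2.08, and each call was kept in only 6 of 17 such fits. Female E9.5 minus E5.5 calls were lost for dre-miR-26b without a filter (1.34), with the series table (2.05) and with merged replicates (1.26), and for gga-miR-26a with the series table (1.62). dre-miR-26a gained the call in females with all 25 arrays (1.42), scaling to the 75th percentile (1.25), exposure (1.35), only the groups compared (1.15), slide position (1.27) and without the 3 early arrays numbered 2 (1.15). The last of these fits left the arrays of both female groups unchanged. Single arrays left out gave 0.99 to 1.33 for dre-miR-26a and 1.19 to 1.58 for dre-miR-26b. In males gga-miR-26a gained the E9.5 minus E5.5 call with all 25 arrays (0.86) and slide position (1.09), and the E9.5 minus E6.5 call with slide position (0.98). Single arrays left out gave 0.57 to 1.23 for gga-miR-26a between E9.5 and E6.5, and 1.17 to 1.99 for dre-miR-26a between E9.5 and E5.5.

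Differences uncalled as reported changed sign as follows. The exception listed is dre-miR-26a between E6.5 and E5.5 in females with chip 50636 alone, which kept its sign and gained a call. With all 25 arrays, males minus females was 0.23 for dre-miR-26a at E5.5, and -0.09 for gga-miR-26a and -0.04 for dre-miR-26a at E6.5. Less the Female E6.5 array numbered 2, the 3 probes gave -0.31, -0.20 and -0.21 at E6.5. gga-miR-26a gave -0.03 there with scaling to the 75th percentile, and dre-miR-26a gave 0.24 at E5.5 without the 3 early arrays. E6.5 minus E5.5 in males was 0.06 for gga-miR-26a and 0.02 for dre-miR-26b with all 25 arrays, 0.10 for dre-miR-26b with exposure, and 0.10 and 0.11 for gga-miR-26a without the 3 early arrays and with slide position. In females it was 0.31 for gga-miR-26a and 0.04 for dre-miR-26b with all 25 arrays, 0.55 and 0.48 less the array numbered 2, and 0.21 for gga-miR-26a with scaling to the 75th percentile. With chip 50636 alone, added after seeing the data, males minus females was 1.30 for dre-miR-26a at E5.5 (called) and -0.10 for gga-miR-26a and -0.10 for dre-miR-26a at E6.5, and E6.5 minus E5.5 was 0.37 for gga-miR-26a in males, and 0.78 for gga-miR-26a and 1.70 for dre-miR-26a in females (both called). Single arrays left out gave, for gga-miR-26a and dre-miR-26a, -0.06 to 0.40 and -0.58 to 0.24 between the sexes at E5.5, and -0.20 to 0.46 and -0.14 to 0.65 at E6.5. They gave -0.47 to 0.19 for gga-miR-26a and -0.49 to 0.36 for dre-miR-26b between E6.5 and E5.5 in males, and -0.33 to 0.13 for gga-miR-26a in females.

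Counts of called probes ranged widely over all settings: 17 to 62 (38 as reported) for the averaged comparison, 6 to 28 (11) in males and 4 to 41 (14) in females for E9.5 minus E5.5, 0 to 10 (2) in males and 0 to 44 (16) in females for E9.5 minus E6.5. Between the sexes they reached 4 at E9.5, 13 at E6.5 and 18 at E5.5, and 39 for females between E6.5 and E5.5, against 0 as reported. On the 7 arrays of chip 50636 Pearson's r of gga-miR-26a with dre-miR-26b was 0.79 and no longer passed (permutation adjusted p = 0.0734), while Spearman's rho of 0.93 did (permutation adjusted p = 0.0202). Both used values of dre-miR-26b that were not detected on any of these arrays. dre-miR-26b lay near background on early arrays, so its differences there are limited by signal over background.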
